A study of Triticum aestivum with 12 samples.

Results

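The genes described here carry 1 of 4 Pfam protein domains found in mitochondrial import proteins, porins and prohibitins, though not only in these. They are Tim17 (PF02466, 40 genes), Tim10/DDP (PF02953, 11 genes), eukaryotic porin (PF01459, 26 genes) and Band 7, also called SPFH (PF01145, 39 genes). Members were all genes whose description in the count table names 1 of these domains and whose counts summed to 10 or more over the 12 libraries, which gave 116 of 124118 genes. A further 28 genes with a domain had fewer than 10 counts, and 24 of these had 0. Nearest to that limit, TraesCS5B01G046000 and TraesCS5B01G299800 stayed outside with 7 counts each and TraesCS5B01G171000 was inside with 10.

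The libraries came from untreated wheat (Triticum aestivum), from seedling shoots without roots, 2 months after germination. Lines C20, C22 and C40 overexpress TaSIP1ΔC, a form of the wheat protein TaSIP1, and each was represented by 3 libraries. Wild type (WT), without that transgene, was represented by a further 3. The series' title links TaSIP1 to signals that run from mitochondria to the nucleus. The promoter of the transgene, the number of plants in a library and an identifier for TaSIP1 do not appear in the labels, so its level was not checked. Whether replicates were separate plants is not stated either. The p-values are therefore based on the spread of these libraries alone, and that spread could be technical.

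Most mitochondrial proteins are encoded in the nucleus and are imported through pores in both mitochondrial membranes. Porins, or voltage-dependent anion channels, let small metabolites cross the outer membrane. Small Tim10-type proteins chaperone hydrophobic precursors across the intermembrane space, and Tim17, Tim22 and Tim23 form the channels of the inner membrane. Prohibitins, which carry a Band 7 domain, build ring complexes in the inner membrane and restrain its proteases. In plants the Tim17 domain is also found in a pore protein family of the chloroplast envelope, and Band 7 also in stomatin-like, flotillin and hypersensitive-response proteins outside mitochondria. The files name the domain and not the protein, so which members are mitochondrial is not known from them, and no member is given a protein name here.

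Library totals were 25622422 to 38454215 counts in the lines and 37757184 to 43532179 in WT. Levels are in CPM, counts brought to a common library size, here with scaling by the trimmed mean of M-values (TMM). Genes with too few counts were filtered out, which left 101 members (32 Tim17, 11 Tim10/DDP, 22 porin, 36 Band 7) among 75788 tested genes. The other 15 members had 10 to 68 counts in all 12 libraries together. A gene with very few counts in WT could pass this filter only through higher line libraries. C20 replicate 3 and C40 replicate 1 stood apart from the other line libraries. The summed level of 649 genes with histone, cyclin, MCM or kinesin domains, taken as markers of dividing cells, was 2402 CPM in the first of these and 2275 CPM in the second. It was 6419 to 15345 CPM in the other 7 line libraries and 2418 to 2540 CPM in WT, and 57 of the 649 genes were at 0 in all libraries. The summed level of 138 genes for chlorophyll a/b-binding proteins and the Rubisco small subunit, taken as markers of green tissue, was 34457 to 175630 CPM in the lines and 128112 to 186866 CPM in WT, with 3 genes at 0 in all libraries. For 156 genes with a K-box or KNOX domain, taken as markers of floral tissue or meristem, it was 605, 469 and 626 CPM in C20 and 680 to 857 CPM in C22 and C40, against 599 to 619 CPM in WT, with 16 genes at 0 in all libraries. Every C22 and C40 library thus lay above WT in this sum, while C20 lay on both sides. The K-box genes alone summed to 436 to 582 CPM in C22 and C40 and 297 to 358 CPM in WT. Genes with the KNOX1 domain summed to 201 to 251 CPM in C22 and C40 and 227 to 296 CPM in WT. For KNOX2 it was 200 to 261 and 242 to 308 CPM. The mean log2(CPM + 0.1) of tested KNOX1 genes was nevertheless 2.14 to 2.72 in C22 and C40 and 0.35 to 0.54 in WT. In such bulk samples, fewer cells of a type and less RNA per cell cannot be told apart. A gene was called changed at an adjusted p of at most 0.05 in the quasi-likelihood test of edgeR, adjusted by Benjamini-Hochberg over all tested genes.

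In the mean of the 3 lines against WT, 27 of the 101 tested members rose, 11 fell and 63 were not called. This is 26.7% rising, against 11.5% of all tested genes, and 10.9% falling, against 11.7% of all tested genes. The median log2 fold change was 0.38 over the members and 0.07 over all tested genes. For 24 members the lowest of the 9 line libraries exceeded the highest WT library, a pattern shown by 5.95% of all tested genes. For 4 members the highest of the 9 was under the lowest WT library, against 8.13% of all tested genes. The 4 families differed in the direction of their calls. Of the Tim10/DDP members 6 rose and 0 fell, of Band 7 14 rose and 2 fell, of the porins 3 rose and 1 fell, and of Tim17 4 rose and 8 fell. These counts rest on the 3 WT libraries: 12 members rose and 6 fell without WT replicate 1, 6 and 3 without WT replicate 2, and 11 and 6 without WT replicate 3. The share of all tested genes called, 23.2% with every library, was then 8.28%, 5.43% and 7.5%. Without C22 replicate 2, 19 rose and 7 fell, with 15.7% of all tested genes called. Without C20 replicate 3 and C40 replicate 1 together 44 rose and 12 fell, with 41.8% of all tested genes called.

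**Figure D1:**
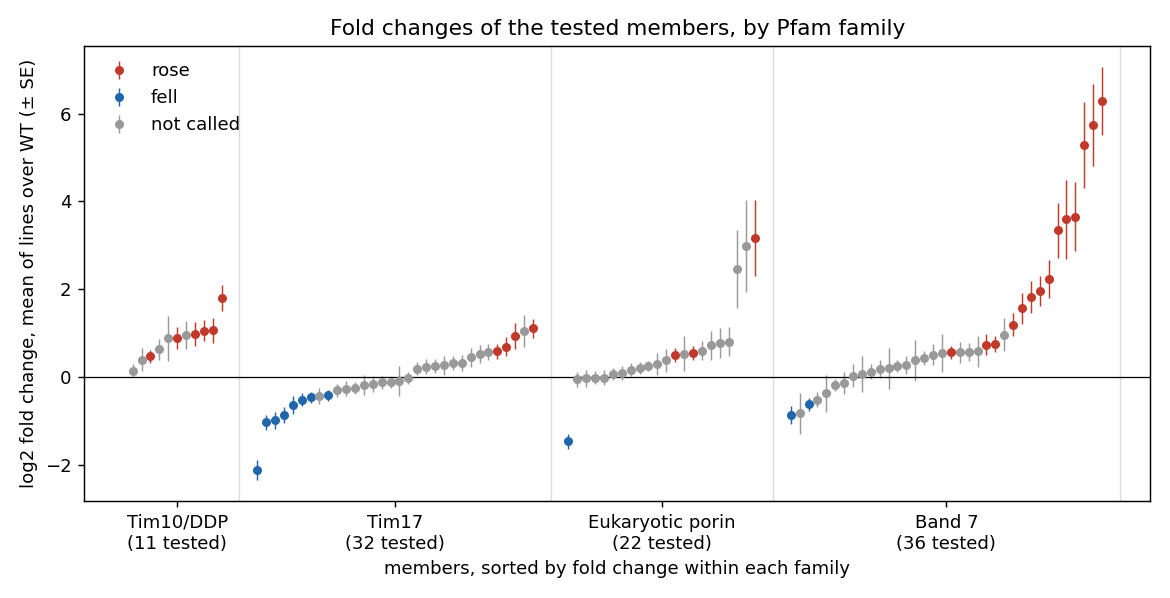
The log2 fold change of each tested member in the mean of the 3 lines over WT, with its standard error, sorted within each Pfam family and coloured by its call. All 11 Tim10/DDP members lie above 0, while the Tim17 members run from -2.13 to 1.11. The 2 highest Band 7 points, TraesCS6A01G142300 and TraesCS1B01G164200, rest on 1 WT count each, so their fitted height is not a measure of size.

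Summed over a family, the direction was clearest for the small Tim10-type genes. Their 11 members together reached 53.8, 78.2 and 43.8 CPM in C20, 54.5, 59.9 and 51.4 CPM in C22 and 42.2, 61.5 and 73.5 CPM in C40, against 30.7, 30.6 and 30.2 CPM in WT. All 9 line libraries exceeded WT, and C20 replicate 3 and C40 replicate 1 were the lowest of them. Those 2 libraries had a dividing-cell marker sum near that of WT and a Tim10/DDP sum of 43.8 and 42.2 CPM. The part of dividing cells in the Tim10/DDP sum was not tested. The Tim17 sum was 331, 377 and 393 CPM in C20, 261, 245 and 248 CPM in C22 and 256, 293 and 259 CPM in C40, against 402, 429 and 347 CPM in WT. C22 and C40 lay below every WT library, and C20 overlapped WT.

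Porin transcripts summed to 379, 456 and 368 CPM in C20, 327, 350.0 and 360.2 CPM in C22 and 311, 443 and 456 CPM in C40, against 345, 339 and 353 CPM in WT. All 3 C20 libraries lay above WT, while C22 and C40 overlapped WT. Band 7 transcripts summed to 378, 331 and 433 CPM in C20, 471, 431 and 428 CPM in C22 and 497, 456 and 505 CPM in C40, against 328, 308 and 362 CPM in WT. C22 and C40 lay above every WT library and C20 overlapped WT. All 116 members together took 1092 to 1107 CPM in WT and 1142, 1242 and 1237 CPM in C20, all above WT. They took 1086 to 1114 CPM in C22 and 1106 to 1293 CPM in C40, which overlapped WT. The mean log2(CPM + 0.1) of the tested members did not overlap, at 2.595 to 2.973 in the lines and 2.227 to 2.283 in WT.

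**Figure D2:**
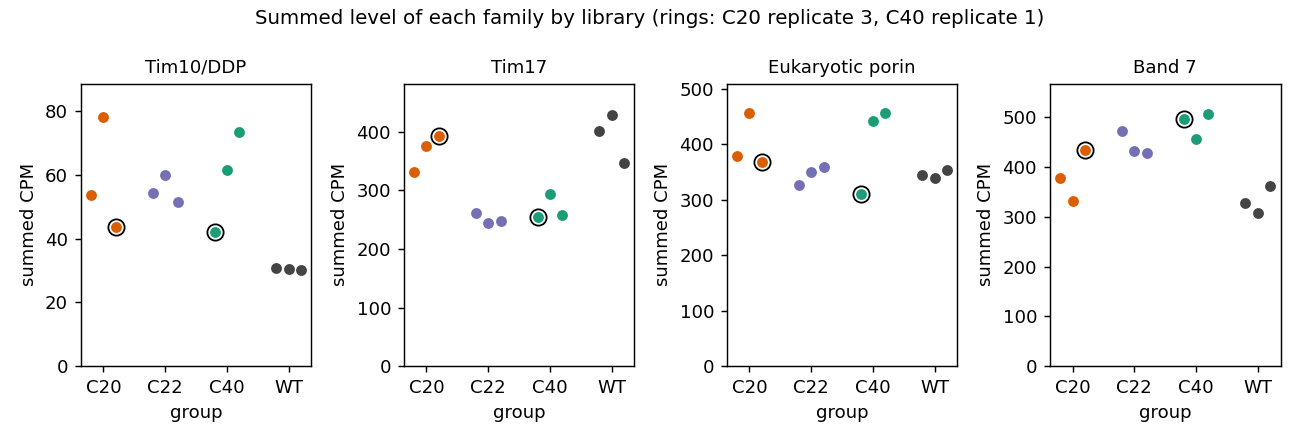
Summed CPM of all members of each family in each library, 3 per group; black rings mark C20 replicate 3 and C40 replicate 1. In the Tim10/DDP panel every line library, ringed ones included, lies above the 3 WT libraries at 30.2 to 30.7 CPM, and in the Tim17 panel C22 and C40 lie below WT.

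The small Tim chaperone family was the most uniform. Of its 11 members, all tested, 6 rose (54.5%, against 11.5% of all tested genes), and the median log2 fold change was 0.89. The other 5 had log2 fold changes of 0.13 to 0.96 and were not called. Per length, the most abundant were TraesCS5B01G087200 and TraesCS5A01G078900, at 15.7 and 15.2 CPM per kb over all libraries, and together with a member on 5A (chromosome 5A, 657487643 to 657490255) they made up 48.7% of the family's length-scaled level.

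The member with the lowest p was TraesCS5D01G093400 (chromosome 5D, 102276681 to 102278243). It had 5.70, 10.2 and 6.21 CPM in C20, 5.85, 6.76 and 5.79 CPM in C22 and 3.97, 8.28 and 9.10 CPM in C40, against 2.25, 1.79 and 1.85 CPM in WT. Every line library was above every WT library, with C40 replicate 1 the lowest of the lines. The log2 fold change was 1.80 ± 0.29 (SE, edgeR adjusted p = 0.00372), and it stayed called when any 1 library was left out. In the single lines it was 1.90 ± 0.33 (SE, edgeR adjusted p = 0.0201) in C20, 1.64 ± 0.32 (SE, edgeR adjusted p = 0.0109) in C22 and 1.85 ± 0.32 (SE, edgeR adjusted p = 0.00606) in C40.

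A further 2 members on group 5 chromosomes had similar levels. TraesCS5A01G078900 (chromosome 5A, 97563921 to 97565424) had 7.05, 10.4 and 4.77 CPM in C20, 7.58, 7.17 and 6.15 CPM in C22 and 6.59, 8.54 and 10.6 CPM in C40, against 3.88, 3.86 and 3.29 CPM in WT. TraesCS5B01G087200 (chromosome 5B, 111681449 to 111683348) had 8.80, 15.1 and 6.57 CPM in C20, 7.10, 11.02 and 8.35 CPM in C22 and 6.77, 10.01 and 13.1 CPM in C40, against 4.21, 4.02 and 5.66 CPM in WT. In both, all line libraries exceeded all WT libraries, and C20 replicate 3 was the lowest of C20. Their log2 fold changes were 1.05 ± 0.24 (SE, edgeR adjusted p = 0.0140) and 1.06 ± 0.29 (SE, edgeR adjusted p = 0.0271), and both fell short of the threshold when any of the 3 WT libraries was left out, with edgeR adjusted p of 0.0569 to 0.0733 and 0.0659 to 0.121.

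Of 3 members without a reference identifier, which the authors' table numbers separately, 2 rose. The one on 5B (chromosome 5B, 668192388 to 668194916) had 7.595, 10.5 and 5.49 CPM in C20, 7.23, 6.35 and 5.25 CPM in C22 and 4.34, 7.33 and 8.44 CPM in C40, against 3.74, 3.77 and 3.70 CPM in WT. WT was tight and below all line libraries. Its log2 fold change was 0.89 ± 0.24 (SE, edgeR adjusted p = 0.0271), with an edgeR adjusted p of 0.0972 to 0.106 without 1 of the WT libraries. The one on 5A, at the position given above, averaged 12.2 ± 3.46 CPM in the lines (SD, n = 9) and 6.24 ± 0.213 CPM in WT (SD, n = 3), a log2 fold change of 0.97 ± 0.27 (SE, edgeR adjusted p = 0.0297), and was called in 8 of the 12 fits without 1 library, in none of those without a WT library. The third, on 5D (chromosome 5D, 396795714 to 396797792), was not called, at 0.39 ± 0.26 (SE, edgeR adjusted p = 0.277).

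The sixth called member, TraesCS4D01G125000 (chromosome 4D, 109253047 to 109254945), had 3.98, 4.22 and 3.96 CPM in C20, 4.50, 4.67 and 5.23 CPM in C22 and 3.26, 3.37 and 4.32 CPM in C40, against 3.02, 3.05 and 2.88 CPM in WT. The lines were above WT in all 9 libraries, but by little. The log2 fold change of 0.47 ± 0.15 (SE, edgeR adjusted p = 0.0421) did not hold in 9 of the 12 fits that left out 1 library, where its edgeR adjusted p reached 0.155. A family member on 4B, TraesCS4B01G127700, had 2.63 to 3.76 CPM in the line libraries (median 3.43), against 3.13, 3.08 and 2.54 CPM in WT and was not called (0.13, edgeR adjusted p = 0.527).

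**Figure D3:**
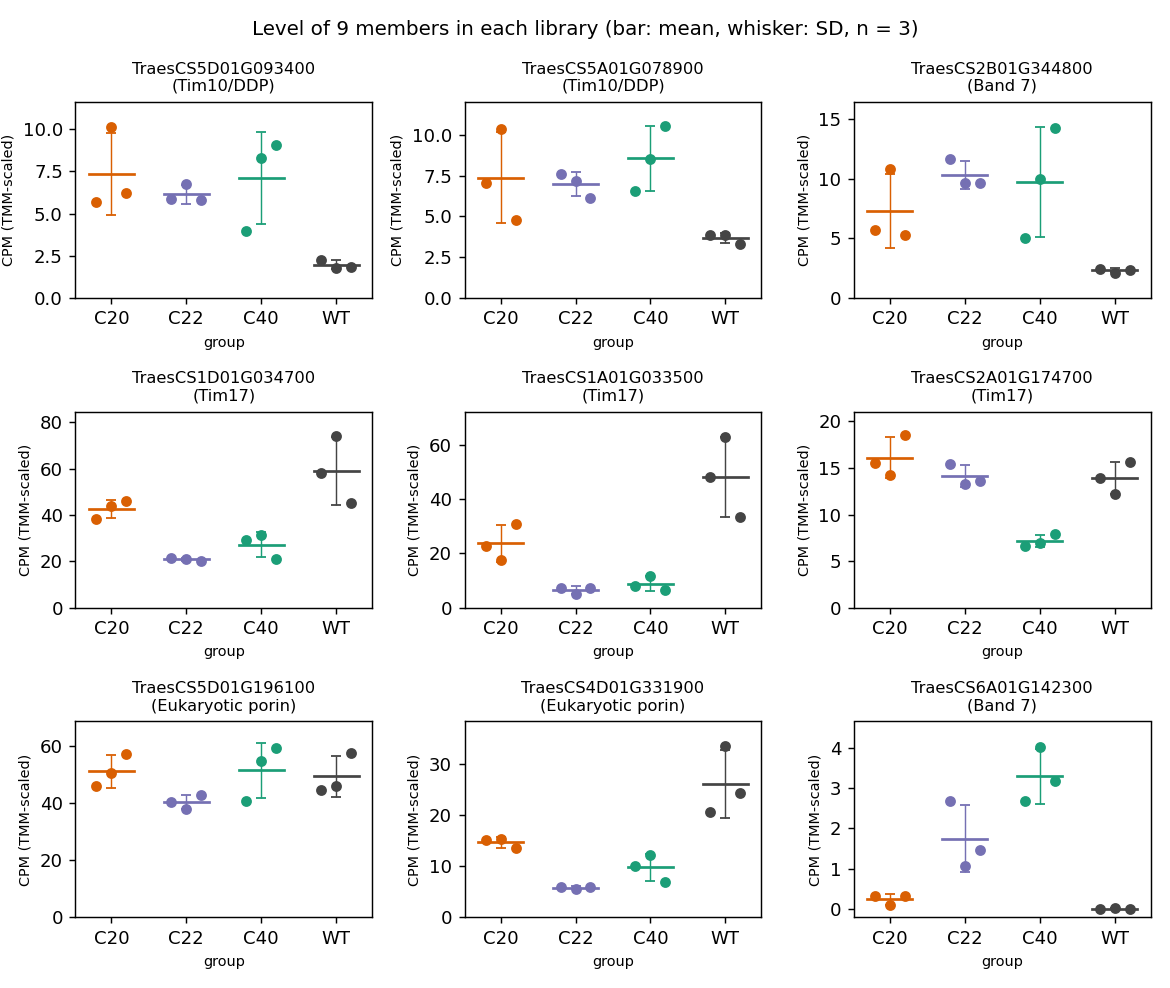
TMM-scaled CPM of 9 members in each library, with the group mean (bar) and SD (whisker, n = 3), lines C20, C22 and C40 left of WT. TraesCS5D01G093400, TraesCS5A01G078900 and TraesCS2B01G344800 lie above WT in all line libraries, TraesCS1A01G033500 and TraesCS4D01G331900 below WT, TraesCS2A01G174700 is low in C40, and TraesCS5D01G196100 overlaps WT in C20 and C40.

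In the Tim17 family, which holds the inner membrane channel proteins, more members fell than rose in the mean of the lines. Of 32 tested members 4 rose (12.5%, against 11.5% of all tested genes) and 8 fell (25.0%, against 11.7%), with a median log2 fold change of -0.11. The lines differed in this. In C22 1 rose and 9 fell (3.12% and 28.1%, median log2 fold change -0.11), against 9.48% and 8.56% of all tested genes. In C40 3 rose and 8 fell (9.38% and 25.0%, median -0.17), against 9.81% and 8.80% of all tested genes. In C20 edgeR and limma called 0, with 8 at an unadjusted p under 0.05 and 3 called in DESeq2, and the median was 0.18, with 23 of 32 members positive. Few genes of any kind were called by edgeR in C20 (2.46% of all tested genes), and DESeq2 called 13.6%. In the mean of the lines, the 8 that fell were the more abundant ones, with a median WT level of 32.9 CPM per kb, against 2.42 CPM per kb for the 4 that rose and 8.84 CPM per kb for the 20 not called. These medians use the same WT libraries as the calls and are given as a description.

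On the group 1 chromosomes, 4 Tim17 members fell, all of them called. TraesCS1A01G033500 (chromosome 1A, 16388521 to 16390897) had 22.7, 17.4 and 30.8 CPM in C20, 7.33, 4.86 and 7.10 CPM in C22 and 8.09, 11.8 and 6.33 CPM in C40, against 48.1, 62.6 and 33.3 CPM in WT. All line libraries were below all WT libraries, C22 and C40 furthest. Its log2 fold change of -2.13 ± 0.24 (SE, edgeR adjusted p = 0.000829) was the largest fall among the tested members and stayed called without any 1 library.

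TraesCS1D01G034700 (chromosome 1D, 15305028 to 15314662), the most abundant Tim17 member at 67.8 CPM per kb over all libraries, had 38.3, 43.9 and 46.0 CPM in C20, 21.4, 21.1 and 20.2 CPM in C22 and 29.1, 31.4 and 21.1 CPM in C40, against 58.1, 74.3 and 45.0 CPM in WT. C22 and C40 were below WT in every library, and C20 reached into the WT range with replicate 3. The log2 fold change was -1.03 ± 0.17 (SE, edgeR adjusted p = 0.00423) and stayed called without any 1 library.

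TraesCS1A01G033600 (chromosome 1A, 16407096 to 16409885), whose start lies 16.2 kb after the end of TraesCS1A01G033500 with no gene of the table between them, had 24.3, 34.5 and 28.7 CPM in C20, 9.22, 11.02 and 7.97 CPM in C22 and 13.9, 15.0 and 8.94 CPM in C40, against 30.5, 37.5 and 22.2 CPM in WT. C20 lay within the WT range while C22 and C40 lay below it. The log2 fold change in the mean of the lines was -0.99 ± 0.20 (SE, edgeR adjusted p = 0.00920), with an adjusted p of 0.0667 without WT replicate 2.

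TraesCS1B01G042300 (chromosome 1B, 22074316 to 22087881) showed the same split, with 6.10, 8.62 and 6.70 CPM in C20, 2.86, 3.03 and 2.89 CPM in C22 and 4.34, 3.27 and 2.83 CPM in C40, against 8.44, 8.95 and 5.42 CPM in WT. Its log2 fold change was -1.38 ± 0.24 (SE, edgeR adjusted p = 0.00763) in C22 and -1.13 ± 0.24 (SE, edgeR adjusted p = 0.0133) in C40, against -0.09 ± 0.24 (SE, edgeR adjusted p = 0.836) in C20. Its call in the mean of the lines was lost without WT replicate 1 or 2 (edgeR adjusted p of 0.0573 and 0.0731). Each of these genes lies near a Tim10/DDP member on its chromosome: TraesCS1A01G033300 at 350 kb from TraesCS1A01G033500, TraesCS1B01G041900 at 269 kb and TraesCS1D01G035000 at 205 kb from theirs, with 2 or 3 genes of the table in between. Those 3 Tim10/DDP neighbours had positive log2 fold changes of 0.96, 0.63 and 0.88 and were not called (edgeR adjusted p of 0.0528, 0.0748 and 0.220).

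The remaining Tim17 members that fell changed by less. TraesCS2A01G291200 and TraesCS2D01G289200 also carry a sterile alpha motif (SAM) domain. The 2A gene averaged 20.8 ± 4.07 CPM in the lines (SD, n = 9) and 28.3 ± 1.51 CPM in WT (SD, n = 3), and the 2D gene 28.0 ± 6.58 CPM in the lines (SD, n = 9) and 39.6 ± 5.62 CPM in WT (SD, n = 3). Their log2 fold changes were -0.46 ± 0.13 (SE, edgeR adjusted p = 0.0261) and -0.52 ± 0.15 (SE, edgeR adjusted p = 0.0291), called in 8 and 7 of the 12 fits without 1 library. The only other tested member with a SAM domain, TraesCS3B01G043100, was not called (-0.09, edgeR adjusted p = 0.864). TraesCS5A01G101300 (chromosome 5A, 148229705 to 148235471) was lower in all 9 line libraries, with 7.76 to 11.2 CPM in the line libraries (median 8.93), against 11.9, 12.4 and 12.4 CPM in WT, a log2 fold change of -0.42 ± 0.13 (SE, edgeR adjusted p = 0.0377). It was called in only 3 of the 12 fits without 1 library, with edgeR adjusted p up to 0.118, and not with no filter (0.0579). TraesCS4A01G410300 fell in the mean of the lines (-0.65 ± 0.20 SE, edgeR adjusted p = 0.0416), was called in 4 of the 12 fits without 1 library, and is described with the differences between lines.

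The 4 Tim17 members that rose were TraesCS4B01G191000, TraesCS6D01G101000, TraesCS4D01G333800 and TraesCS4A01G113200. TraesCS4B01G191000 (chromosome 4B, 413492621 to 413495998) had 1.97, 2.15 and 1.53 CPM in C20, 2.57, 2.15 and 2.41 CPM in C22 and 2.52, 2.81 and 2.55 CPM in C40, against 1.35, 0.911 and 0.892 CPM in WT. All line libraries were above WT, at a low level. Its log2 fold change was 1.11 ± 0.22 (SE, edgeR adjusted p = 0.00793), and 0.0567 was its highest adjusted p with 1 library left out. The other 3 had log2 fold changes of 0.93, 0.69 and 0.58 and were called in 2, 3 and 5 of the 12 fits without 1 library. TraesCS6B01G308900, with 49.9 CPM per kb the second most abundant member of the family, was level across groups, with 25.3, 27.4 and 22.9 CPM in C20, 21.9, 22.4 and 20.6 CPM in C22 and 17.3, 23.3 and 21.2 CPM in C40, against 23.6, 23.2 and 21.8 CPM in WT (log2 fold change -0.03 ± 0.13 SE, edgeR adjusted p = 0.888).

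Green-tissue marker levels moved along with the falling Tim17 genes in part. In C22 and C40 the green-tissue sum was 39389 to 81399 CPM and the Tim17 sum 245 to 293 CPM, and in WT they were 128112 to 186866 CPM and 347 to 429 CPM. C20 replicate 2 had the lowest green-tissue sum of all libraries, 34457 CPM, and a Tim17 sum of 377 CPM. The floral or meristem sum moved the other way in the same libraries, at 680 to 857 CPM in C22 and C40, against 599 to 619 CPM in WT. That rise lay with the K-box genes, while the KNOX sums overlapped WT. The part of either tissue in the Tim17 result was not tested.

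Porins had the smallest share of called members of the 4 families. Of 22 tested members 3 rose (13.6%, against 11.5% of all tested genes) and 1 fell (4.55%, against 11.7%). The median log2 fold change was still 0.34, with 17 of 22 members positive. In the single lines 21 were positive in C20, 16 in C22 and 20 in C40. The 2 most abundant members, TraesCS5D01G196100 and TraesCS5B01G189000, held 58.0 and 56.9 CPM per kb over all libraries and together 28.0% of the family's length-scaled level, and neither was called. TraesCS5D01G196100 (chromosome 5D, 299810388 to 299813322) had 45.8, 50.3 and 57.1 CPM in C20, 40.3, 37.9 and 42.9 CPM in C22 and 40.6, 54.5 and 59.1 CPM in C40, against 44.5, 46.0 and 57.5 CPM in WT. C20 and C40 overlapped WT, while C22 lay below it (log2 fold change -0.06 ± 0.16 SE, edgeR adjusted p = 0.807). The difference in C22 was not called, at -0.29 ± 0.20 (SE, edgeR adjusted p = 0.316). TraesCS5B01G189000 (chromosome 5B, 341051232 to 341054266) had 45.6, 46.6 and 54.6 CPM in C20, 45.0, 42.7 and 46.9 CPM in C22 and 42.0, 54.0 and 57.9 CPM in C40, against 44.6, 42.5 and 42.5 CPM in WT, with 7 of 9 line libraries above WT (log2 fold change 0.16 ± 0.14 SE, edgeR adjusted p = 0.429).

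The porin that fell was TraesCS4D01G331900 (chromosome 4D, 489708044 to 489713363), with 15.2, 15.4 and 13.5 CPM in C20, 6.01, 5.53 and 5.87 CPM in C22 and 10.1, 12.3 and 6.89 CPM in C40, against 20.5, 33.3 and 24.3 CPM in WT. All line libraries were below all WT libraries, and C22 was the lowest group. Its log2 fold change was -1.47 ± 0.18 (SE, edgeR adjusted p = 0.00127) and it stayed called without any 1 library. Among the porins, only this one was called between the lines.

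Both better-expressed porins that rose changed little. TraesCS3D01G213400 (chromosome 3D, 287299305 to 287301282) had 13.8, 17.5 and 14.2 CPM in C20, 14.1, 15.6 and 14.9 CPM in C22 and 11.9, 18.9 and 17.4 CPM in C40, against 10.6, 9.61 and 11.6 CPM in WT. A porin on 1A without a reference identifier (chromosome 1A, 540053820 to 540056951) had 14.1, 18.3 and 16.8 CPM in C20, 14.5, 14.7 and 13.7 CPM in C22 and 12.9, 18.5 and 19.6 CPM in C40, against 11.5, 11.4 and 10.8 CPM in WT. The lines were above WT in all 9 libraries for both. Their log2 fold changes, 0.54 ± 0.16 (SE, edgeR adjusted p = 0.0386) and 0.50 ± 0.16 (SE, edgeR adjusted p = 0.0408), were called in only 3 of the 12 fits without 1 library and reached adjusted p of 0.180 and 0.164.

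Tested porins of very low level in WT were higher in most line libraries, through which alone they passed the filter on low counts. TraesCS3B01G217800 (chromosome 3B, 260380508 to 260385437) had 0.256, 0.915 and 0.180 CPM in C20, 1.45, 2.49 and 1.06 CPM in C22 and 0.154, 0.752 and 1.68 CPM in C40, against 0.0825, 0.0314 and 0.171 CPM in WT. Of 9 line libraries 8 were above WT, with C40 replicate 1 inside the WT range. It had 293 counts in the lines and 9 in WT, a ratio of 11.2 after scaling (95% counting interval 5.80 to 24.7), and a log2 fold change of 3.17 ± 0.87 (SE, edgeR adjusted p = 0.0269) that reached 0.0653 to 0.112 without 1 of the WT libraries. TraesCS3A01G188600 and TraesCS3D01G192000 had 10 and 9 WT counts and ratios of 9.30 (4.98 to 19.6) and 6.14 (3.15 to 13.7), and neither was called in the mean of the lines (edgeR adjusted p of 0.0607 and 0.0679). These intervals cover counting error only.

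Band 7, the family that includes prohibitins, held the most called members. Of 36 tested members 14 rose (38.9%, against 11.5% of all tested genes) and 2 fell (5.56%, against 11.7%), and the median log2 fold change was 0.55. In C20 3 rose and 1 fell (8.33% and 2.78%, against 1.44% and 1.02% of all tested genes). In C22 13 rose and 2 fell (36.1% and 5.56%, against 9.48% and 8.56%). In C40 14 rose and 0 fell (38.9% and 0%, against 9.81% and 8.80%). The floral or meristem marker sum was also above every WT library in C22 and C40 and not in C20, as given above. Within that sum the K-box genes lay above WT, while the KNOX sums overlapped WT. The mean log2(CPM + 0.1) of tested KNOX1 genes was however 2.14 to 2.72 in C22 and C40 and 0.35 to 0.54 in WT. The part of floral tissue or meristem in these counts was not tested. Of the 14 that rose, 11 had an estimated rise of at least 2-fold. They were also the less abundant ones, with a median WT level of 1.49 CPM per kb, against 14.2 CPM per kb for the 2 that fell and 7.42 CPM per kb for the 20 not called. These medians use the same WT libraries as the calls and are given as a description. Some of the 14 had only 1 to 9 counts in WT and passed the filter on low counts through the line libraries alone. For those, a rise was the only change that could be seen. Of the members whose description adds the C-terminal region of Band 7 proteins (PF16200), 5 were tested and edgeR, DESeq2 and limma called 0, with 1 at an unadjusted p under 0.05 (TraesCS7A01G299700). Their log2 fold changes were -0.18 to 0.56 and their edgeR adjusted p 0.112 to 0.918.

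A set of 3 members on 2A, 2B and 2D rose together at a moderate level. TraesCS2B01G344800 (chromosome 2B, 491354251 to 491355108) had 5.66, 10.8 and 5.26 CPM in C20, 11.7, 9.60 and 9.65 CPM in C22 and 4.99, 9.98 and 14.2 CPM in C40, against 2.45, 2.10 and 2.37 CPM in WT. TraesCS2A01G337100 had 8.58, 16.1 and 6.30 CPM in C20, 11.2, 12.5 and 10.6 CPM in C22 and 5.94, 11.7 and 18.2 CPM in C40, against 3.44, 2.79 and 3.36 CPM in WT. TraesCS2D01G325800 had 7.12, 17.5 and 4.90 CPM in C20, 12.3, 11.7 and 9.06 CPM in C22 and 6.22, 11.02 and 17.5 CPM in C40, against 2.72, 1.85 and 2.33 CPM in WT. In all 3 every line library was above every WT library, and C20 replicate 3 and C40 replicate 1 were the lowest of their lines. The log2 fold changes were 1.96 ± 0.34 (SE, edgeR adjusted p = 0.00484), 1.81 ± 0.36 (SE, edgeR adjusted p = 0.00888) and 2.23 ± 0.43 (SE, edgeR adjusted p = 0.00793). The first stayed called without any 1 library, and the other 2 lost the call without WT replicate 2 (adjusted p of 0.0564 and 0.0528). Similar genes of the 3 subgenomes may share reads, and how such reads were counted is not stated in the labels.

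Some tested members were at the edge of detection in WT and present in the lines. They passed the filter on low counts through the line libraries alone, so members low in both were not tested. TraesCS6A01G142300 (chromosome 6A, 117003963 to 117005405) had 0.329, 0.0885 and 0.315 CPM in C20, 2.67, 1.07 and 1.47 CPM in C22 and 2.68, 4.02 and 3.17 CPM in C40, against 0, 0.0314 and 0 CPM in WT. Every C22 and C40 library was above every C20 library, and all 9 were above WT. In counts it had 510 in the lines and 1 in WT, a ratio of 175 after scaling with a 95% counting interval of 31.3 to 6925, in edgeR an adjusted p of 0.00136. TraesCS6D01G131700 (chromosome 6D, 97928685 to 97930127) had 0.183, 0.0590 and 1.17 CPM in C20, 4.18, 1.99 and 3.004 CPM in C22 and 2.95, 4.29 and 4.41 CPM in C40, against 0.0275, 0.0942 and 0 CPM in WT, a ratio of 61.9 (24.1 to 228) from 722 counts in the lines and 4 in WT. C22 and C40 were above WT throughout, while 1 C20 library lay within the WT range. Both stayed called without any 1 library.

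Members on 1A, 1B and 1D followed the same order of lines. TraesCS1B01G164200 (chromosome 1B, 286611454 to 286612791) had 0.183, 0.148 and 0.540 CPM in C20, 1.09, 0.284 and 1.28 CPM in C22 and 1.42, 1.86 and 1.89 CPM in C40, against 0, 0.0314 and 0 CPM in WT. With 283 counts in the lines and 1 in WT, its ratio was 97.1 (95% counting interval 17.3 to 3849; edgeR adjusted p = 0.00384). TraesCS1A01G146000 had a ratio of 15.9 (6.09 to 58.9) from 185 counts in the lines and 4 in WT, and TraesCS1D01G144600 one of 20.3 (9.23 to 55.7) from 355 counts in the lines and 6 in WT. For all 3 the ratio to WT was smallest in C20 and largest in C40. For the 1A gene it was 4.08 in C20, 10.9 in C22 and 31.7 in C40. For the 1B gene it was 25.7 in C20, 89.9 in C22 and 168 in C40, and for the 1D gene 3.30 in C20, 16.2 in C22 and 39.7 in C40. The counting intervals of C22 overlapped those of both neighbours in this order. For each gene these intervals share the same few WT counts, so their overlap cannot tell whether the lines differ. The call of the 1D gene was lost without WT replicate 2 (edgeR adjusted p = 0.0540), while those of the other 2 held without any 1 library. Library totals, 25622422 to 38454215 in the lines and 37757184 to 43532179 in WT, enter these ratios through the scaling.

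Of 2 pairs of Band 7 neighbours on the group 5 chromosomes, all 4 genes rose. On 5D, TraesCS5D01G221900 (chromosome 5D, 329431389 to 329436653) had 18.0, 9.83 and 26.4 CPM in C20, 30.6, 26.2 and 25.5 CPM in C22 and 32.1, 27.7 and 26.8 CPM in C40, against 11.5, 8.85 and 11.7 CPM in WT. All but 1 library of the lines, C20 replicate 2, were above all of WT. The log2 fold change was 1.19 ± 0.26 (SE, edgeR adjusted p = 0.0123), with 0.0740 without WT replicate 2. Its neighbour at 155 kb, TraesCS5D01G221800, was much lower, with a ratio of 14.2 (7.41 to 31.3) from 373 counts in the lines and 9 in WT, and was called in 9 of the 12 fits without 1 library. On 5A, TraesCS5A01G212000 averaged 30.5 ± 8.42 CPM in the lines (SD, n = 9) and 17.9 ± 3.08 CPM in WT (SD, n = 3), a log2 fold change of 0.73 ± 0.24 (SE, edgeR adjusted p = 0.0460). This call held in only 2 of the 12 fits without 1 library, with edgeR adjusted p up to 0.194, and not with no filter (0.0555). Next to it, TraesCS5A01G212100 averaged 20.03 ± 1.53 CPM in the lines (SD, n = 9) and 13.6 ± 1.68 CPM in WT (SD, n = 3), a log2 fold change of 0.56 ± 0.14 (SE, edgeR adjusted p = 0.0194), called in 9 of the 12 fits without 1 library. The pair on 5B, TraesCS5B01G211700 and TraesCS5B01G211900, was not called (0.58 and 0.96, edgeR adjusted p of 0.241 and 0.0794). C20 replicate 2, which had the highest dividing-cell and the lowest green-tissue sum, was the lowest line library for 5 of these 6 genes, all but TraesCS5A01G212100. The part of those marker sums was not tested.

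The last 2 that rose were TraesCS1A01G407100 and TraesCS1B01G458900. TraesCS1A01G407100 averaged 27.3 ± 4.66 CPM in the lines (SD, n = 9) and 16.2 ± 0.968 CPM in WT (SD, n = 3), a log2 fold change of 0.75 ± 0.18 (SE, edgeR adjusted p = 0.0171). TraesCS1B01G458900 averaged 0.653 ± 0.221 CPM in the lines (SD, n = 9) and 0.214 ± 0.0303 CPM in WT (SD, n = 3), a log2 fold change of 1.56 ± 0.35 (SE, edgeR adjusted p = 0.0141). They were called in 9 and 10 of the 12 fits without 1 library, the exceptions all without a WT library. The 2 Band 7 members that fell lie at similar positions on 7A and 7D. TraesCS7D01G069900 (chromosome 7D, 40854016 to 40856731) had 9.75, 6.91 and 9.31 CPM in C20, 10.9, 10.1 and 8.96 CPM in C22 and 15.0, 12.4 and 10.8 CPM in C40, against 14.7, 16.8 and 16.4 CPM in WT. Of 9 line libraries 8 were below WT, all but C40 replicate 1. Its log2 fold change was -0.63 ± 0.15 (SE, edgeR adjusted p = 0.0161), with 0.0721 and 0.0584 without WT replicates 2 and 3. TraesCS7A01G074700 had 2.15 to 6.83 CPM in the line libraries (median 4.61), against 8.03, 9.04 and 9.05 CPM in WT, a log2 fold change of -0.87 ± 0.21 (SE, edgeR adjusted p = 0.0176), with 0.0706 and 0.0619 without WT replicates 2 and 3.

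The most abundant Band 7 members were not called. TraesCS4D01G322000 (chromosome 4D, 484290017 to 484293123), at 49.3 CPM per kb over all libraries, had 42.2, 18.2 and 48.1 CPM in C20, 45.1, 38.4 and 43.7 CPM in C22 and 53.0, 40.5 and 40.6 CPM in C40, against 42.3, 43.5 and 50.1 CPM in WT. One library, C20 replicate 2, was far below the other 11 (log2 fold change -0.15 ± 0.25 SE, edgeR adjusted p = 0.685). TraesCS5B01G528100 (chromosome 5B, 686932357 to 686935039), at 47.5 CPM per kb, had 38.6, 41.8 and 45.0 CPM in C20, 40.97, 40.0 and 42.4 CPM in C22 and 37.5, 44.0 and 47.4 CPM in C40, against 34.6, 32.9 and 38.4 CPM in WT, with 8 of 9 line libraries above WT (log2 fold change 0.25 ± 0.14 SE, edgeR adjusted p = 0.190).

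**Figure D4:**
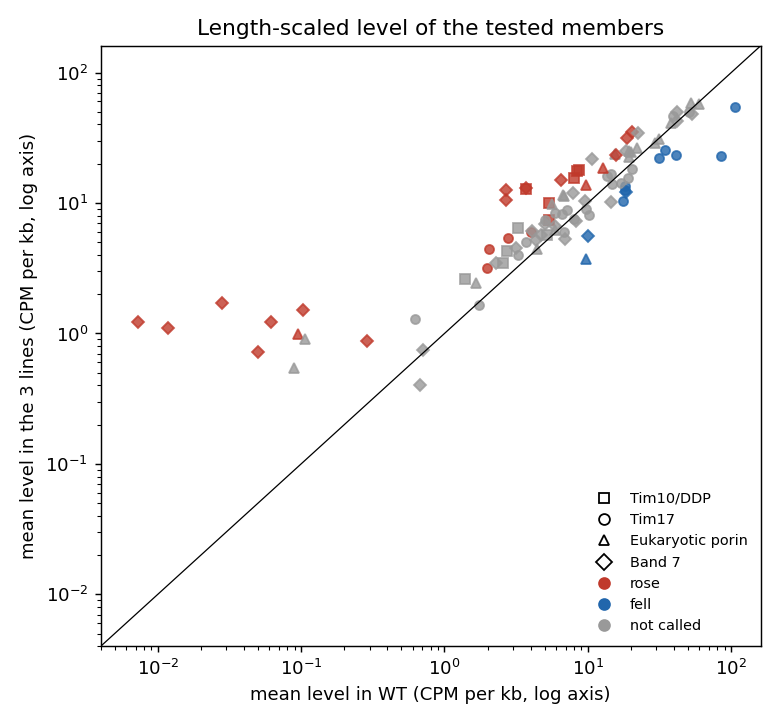
Mean level in the 3 lines (vertical) against mean level in WT (horizontal) for each tested member, in CPM per kb of gene length on log axes; marker shape gives the family and colour the call, and the line marks equal levels. Most members lie near the line; the Band 7 members far above it had under 1 CPM per kb in WT, and the 2 Tim17 members furthest right, both fallen, are TraesCS1A01G033500 and TraesCS1D01G034700.

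The lines did not have the same number of calls against WT, which all 3 comparisons share. In C20, 5 members were called (2.46% of all tested genes were), 4 of them rising (1.44% of all tested genes) and 1 falling (1.02%). In C22, 30 were called (18.0% of all tested genes were), 18 of them rising (9.48%) and 12 falling (8.56%). In C40, 32 were called (18.6% of all tested genes were), 23 of them rising (9.81%) and 9 falling (8.80%). The 5 in C20 were TraesCS5D01G093400, TraesCS2B01G344800 (1.65 ± 0.38 SE, edgeR adjusted p = 0.0471), TraesCS2D01G325800 (2.10 ± 0.48 SE, edgeR adjusted p = 0.0485) and TraesCS6A01G142300 (ratio 22.2, 3.52 to 921, from 19 counts in C20 and 1 in WT; edgeR adjusted p = 0.0464), which rose, and TraesCS7D01G069900 (-0.88 ± 0.19 SE, edgeR adjusted p = 0.0396), which fell. The count in C20 depended on single libraries. Without WT replicate 1, 2 or 3, edgeR called 0 members in C20, with 32, 28 and 32 at an unadjusted p under 0.05, while DESeq2 on all libraries called 24. Among all tested genes, those edgeR fits called 0.127%, 0.112% and 0.194%, and DESeq2 called 13.6%. The edgeR count was 16 without C20 replicate 3, 12 without C40 replicate 1, 8 without C20 replicate 2, and 1 without C20 replicate 1, any 1 library of C22 or C40 replicate 2. The shares of all tested genes moved as well, to 16.4%, 6.99%, 5.07% and 0.481% to 1.3% in the same order. Without C20 replicate 3 and C40 replicate 1 together 29 were called in C20, 42 in C22 and 49 in C40, of 103 tested. In that fit 25.3%, 31.4% and 34.3% of all tested genes were called. In C22 the count was 17, 15 and 19 without replicates 1, 2 and 3 of C22 and 14, 10 and 17 without those of WT. The shares of all tested genes were 7.15%, 5.28% and 7.35%, and 6.25%, 4.36% and 6.98%. In C40 the count was 21 and 15 without replicates 2 and 3 of C40 and 19, 12 and 21 without those of WT. The shares of all tested genes were 9.28% and 5.55%, and 7.88%, 5.95% and 7.82%.

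Spread within a line differed as well. The median coefficient of variation of a tested member was 22.2% in C20, 10.5% in C22 and 20.6% in C40, against 13.8% in WT. Over all tested genes C20 was again the most variable line (39.4%) and C22 the least (17.9%), against 19.1% in WT. In C20 the Band 7 members varied most (41.6%) and the porins least (15.9%). Within C40, replicate 1 was the lowest library for 66 of the 101 members, or 65.3%, while this held for 38.5% of all tested genes.

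The F test between the 3 lines called 9 members (2.49% of all tested genes), of which 6 were Tim17, 1 was a porin and 2 were Band 7. The lowest adjusted p belonged to TraesCS2A01G174700 (chromosome 2A, 133473094 to 133473777), with 15.6, 14.3 and 18.5 CPM in C20, 15.5, 13.3 and 13.6 CPM in C22 and 6.59, 6.94 and 7.89 CPM in C40, against 13.9, 12.2 and 15.7 CPM in WT. The 3 C40 libraries lay below the other 9, whose values overlapped between C20, C22 and WT. In C40 the log2 fold change against WT was -0.96 ± 0.17 (SE, edgeR adjusted p = 0.00634), in C22 0.02 ± 0.17 (SE, edgeR adjusted p = 0.945) and in C20 0.21 ± 0.17 (SE, edgeR adjusted p = 0.444). On each of 2A, 2B and 2D such a gene is followed by another Tim17 gene, after a gap of 276, 274 and 291 bases. Family members at the matching places on 2B and 2D were not called between lines or in C40 (TraesCS2B01G201100 0.32, edgeR adjusted p = 0.267, and TraesCS2D01G182100 0.37, edgeR adjusted p = 0.181).

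A second pattern between lines had C20 near WT and C22 and C40 below it. It was shown by TraesCS1A01G033600 and TraesCS1B01G042300, described above, and by TraesCS4A01G410300 and TraesCS4D01G308300. TraesCS4A01G410300 (chromosome 4A, 683492364 to 683494764) had 8.03, 10.9 and 15.1 CPM in C20, 4.63, 4.36 and 4.23 CPM in C22 and 6.03, 7.43 and 4.72 CPM in C40, against 10.7, 12.6 and 8.26 CPM in WT. TraesCS4D01G308300 (chromosome 4D, 476309752 to 476312220) had 5.95, 8.35 and 8.41 CPM in C20, 2.35, 3.38 and 3.57 CPM in C22 and 3.14, 3.73 and 3.54 CPM in C40, against 6.49, 6.41 and 4.77 CPM in WT. C20 reached above the WT range in both, and C22 was below it. The log2 fold changes in C22 were -1.26 ± 0.26 (SE, edgeR adjusted p = 0.0129) and -0.92 ± 0.23 (SE, edgeR adjusted p = 0.0223), those in C40 -0.80 ± 0.26 (SE, edgeR adjusted p = 0.0534) and -0.76 ± 0.23 (SE, edgeR adjusted p = 0.0403), and those in C20 0.11 ± 0.26 (SE, edgeR adjusted p = 0.816) and 0.36 ± 0.22 (SE, edgeR adjusted p = 0.318). The sum of the green-tissue markers was 100998, 34457 and 175630 CPM in C20 replicates 1, 2 and 3, and its part in this pattern was not tested. For TraesCS1A01G033500 and TraesCS4D01G331900, C20 lay between C22 and WT, and for TraesCS6A01G142300 and TraesCS1A01G146000 C20 was the lowest line and C40 the highest. The count of 9 was 11 without C20 replicate 2, 1 to 6 without any other 1 library and 17 in DESeq2. The shares of all tested genes were 9.53%, 0.378% to 1.98% and 9.87%.

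**Figure D5:**
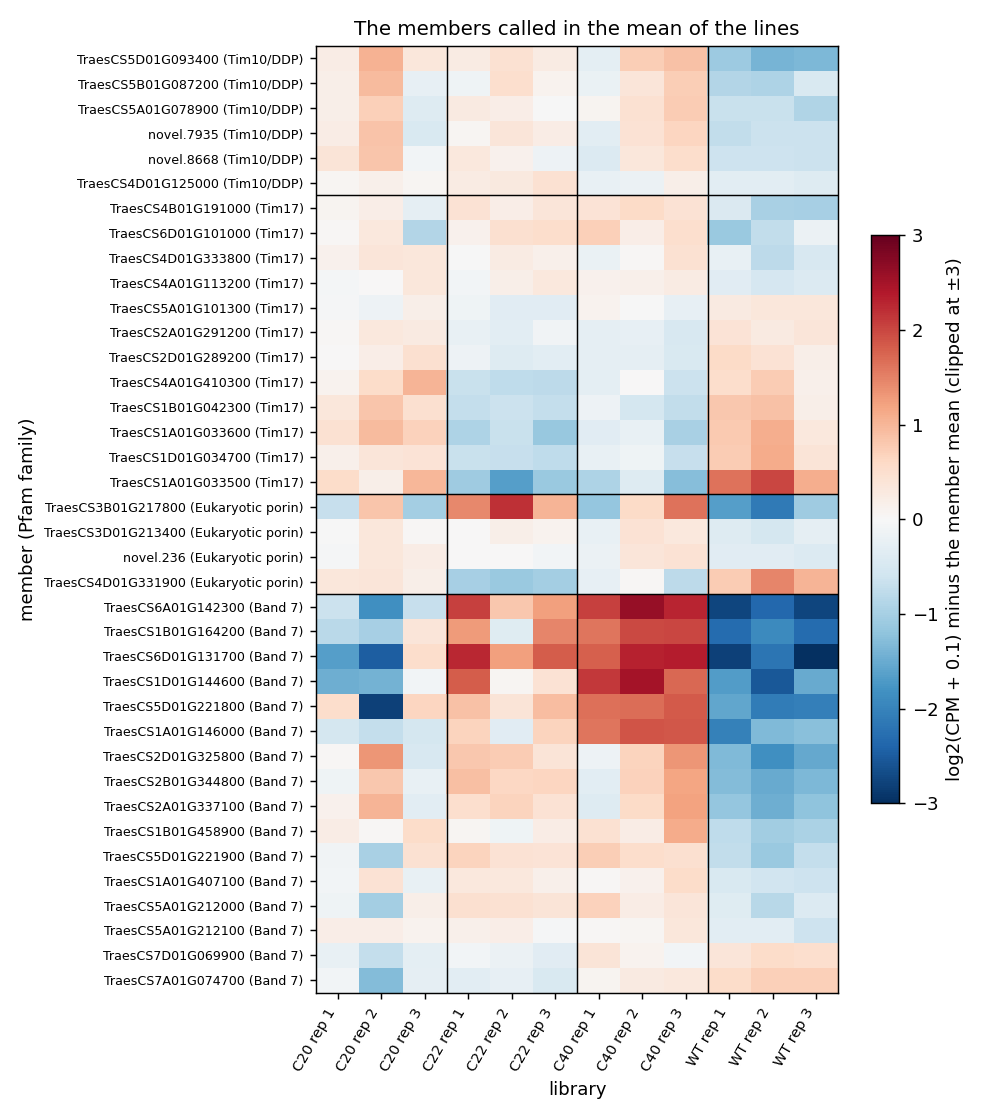
The 38 members called in the mean of the lines (down the page, by family) in each of the 12 libraries (lines left of WT), as log2(CPM + 0.1) minus the member's mean over the libraries, clipped at 3. Tim10/DDP and most Band 7 members are lowest in the 3 WT libraries, while most fallen Tim17 members are high in C20 and WT and low in C22 and C40.

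By subgenome, 10 rose and 6 fell of 34 tested on A (29.4% and 17.6%), 7 rose and 1 fell of 31 on B (22.6% and 3.23%), and 10 rose and 4 fell of 36 on D (27.8% and 11.1%). Of all tested genes 11.5% rose and 11.7% fell. No member overlapped another gene of the table on either strand.

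Other genes that work beside these families were counted from domain lists in the mean of the lines, where 11.5% of all tested genes rose and 11.7% fell. At the outer membrane entry gate, all 3 genes with the plant TOM20 receptor domain rose, by 0.76, 0.75 and 0.64 on the log2 scale (TraesCS3A01G429800, TraesCS3B01G467700 and TraesCS3D01G425100, edgeR adjusted p of 0.0131, 0.0254 and 0.0331). The single Tom22 receptor gene, TraesCS2D01G378600, averaged 4.04 ± 0.236 CPM in the lines (SD, n = 9) and 2.65 ± 0.153 CPM in WT (SD, n = 3), a log2 fold change of 0.61 (edgeR adjusted p = 0.0147). Of 15 tested genes with the Omp85 surface antigen domain, found in sorting and chloroplast envelope pores, 1 rose (TraesCS2D01G101900, 3.38) and 2 fell (TraesCS5A01G152900 and TraesCS5D01G158200, both -0.55).

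In the relay of the intermembrane space, 2 of 8 CHCH-domain genes rose, TraesCS5A01G169200 (1.27) and TraesCS4D01G026400 (0.47). Of 5 genes with the Erv1 domain edgeR called 0, with 0 at an unadjusted p under 0.05 and 0 called in DESeq2 or limma.

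At the inner membrane motor the domains differed. Of 8 tested genes with Tim44, which tethers the motor to the channel, 3 rose and 0 fell. These were TraesCS2D01G142800, TraesCS2D01G142700 and TraesCS2B01G164000, which averaged 1.87 ± 0.432, 1.61 ± 0.761 and 0.642 ± 0.344 CPM in the lines (SD, n = 9) and 0.625 ± 0.249, 0.1998 ± 0.134 and 0.0928 ± 0.0549 CPM in WT (SD, n = 3). Of 6 with Tim21 1 rose (TraesCS4D01G221800, 1.60), and the single gene with the Romo1 domain, TraesCS1B01G183600, rose by 0.79. Of 5 genes with Pam16 edgeR and limma called 0, with 2 at an unadjusted p under 0.05 and 2 called in DESeq2. Of 11 with the DNL zinc finger edgeR, DESeq2 and limma called 0, with 1 at an unadjusted p under 0.05.

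Of 8 genes with the GrpE domain, the exchange factor of Hsp70 chaperones in mitochondria and plastids, 0 rose and 6 fell. The GrpE gene with the lowest p, TraesCS2B01G320000, averaged 28.0 ± 13.1 CPM in the lines (SD, n = 9) and 58.8 ± 4.32 CPM in WT (SD, n = 3), a log2 fold change of -1.19 ± 0.20 (SE, edgeR adjusted p = 0.00432). The other 5 that fell had log2 fold changes of -0.95 to -0.69. In the single lines, 6 of the 8 fell in C22 and 5 in C40, against 8.56% and 8.80% of all tested genes. In C20 edgeR, DESeq2 and limma called 0, with 0 at an unadjusted p under 0.05.

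After import, precursors are cut and folded. Of 32 tested genes with the N-terminal M16 peptidase domain, which the presequence-cutting enzyme carries, 3 rose and 3 fell. The 3 that fell were the more abundant: TraesCS6B01G343300, TraesCS7B01G296500 and TraesCS6A01G313400 averaged 98.2 ± 31.2, 80.6 ± 14.3 and 69.1 ± 14.9 CPM in the lines (SD, n = 9) and 187 ± 14.1, 125 ± 1.74 and 116 ± 3.91 CPM in WT (SD, n = 3). The 3 that rose, TraesCS3B01G347600, TraesCS3A01G318300 and TraesCS1D01G346100, averaged 12.5 to 15.1 CPM in the lines and 6.86 to 9.35 CPM in WT.

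Insertion into the inner membrane and signal cleavage showed both directions. Of 14 genes with the 60 kDa inner membrane protein domain, which Oxa1-type insertases of mitochondria and chloroplasts carry, 6 rose and 3 fell. The 3 that fell, TraesCS3A01G075700, TraesCS3B01G089800 and TraesCS3D01G075800, averaged 85.9 to 102 CPM in the lines and 149.8 to 175 CPM in WT, while the 6 that rose averaged 3.84 to 10.98 CPM in the lines and 2.19 to 7.06 CPM in WT. Of 9 with the S26 signal peptidase domain 2 rose and 2 fell. Of 13 genes for Cpn10, the lid of organellar chaperonins, 2 rose and 11 fell. By line, 1 rose and 11 fell in C22 and 2 and 6 in C40, while edgeR called 0 in C20 (2 in DESeq2). The F test between lines called 9 of these 13, against 2.49% of all tested genes. Of 75 genes with the Cpn60/TCP-1 domain, which covers organellar and cytosolic chaperonins, 33 rose and 12 fell. In C22 33 rose and 11 fell, in C40 33 and 8, and in C20 0 and 2 (29 called in DESeq2). Of all tested genes 18.0% were called in C22, 18.6% in C40 and 2.46% in C20 (13.6% in DESeq2).

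Of 60 tested genes for proteins known to work with prohibitins or to shape the inner membrane, 5 rose and 7 fell, 8.33% and 11.7%, near the 11.5% and 11.7% of all tested genes. Of 37 FtsH protease genes 2 rose and 4 fell. Of 6 Lon protease genes 2 rose, TraesCS2D01G094000 and TraesCS2B01G110800 (1.76 and 1.46), and 3 fell, TraesCS5D01G328300, TraesCS5A01G321500 and TraesCS5B01G322000 (-1.10, -0.98 and -0.87). Of 12 LETM1 genes 1 rose. Of 2 mitofilin and 3 Mic10 genes edgeR called 0, with 0 at an unadjusted p under 0.05 and 0 called in DESeq2 or limma. Hexokinases, some of which bind porin, rose in 2 and fell in 2 of 20. The domains of several of these lists also occur in chloroplast proteins, and the files do not separate the organelles. The green-tissue sum was 34457 to 175630 CPM in the lines and 128112 to 186866 CPM in WT, and its part in these counts was not tested.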

How the data were processed

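RNA-seq of 12 wheat libraries, 3 for each of C20, C22, C40 and WT, was taken from the 2 tables that the authors deposited, a table of read counts per gene and one of FPKM (fragments scaled by gene length and library size). Counts were made with featureCounts 1.5.0-p3, per the submitters' processing notes. For the aligner, genome build, annotation and strand setting, nothing was given in the sources used here, and coordinates are those of the authors' table without a named build. The deposited counts and the deposited FPKM cover the same 124118 genes, of which 75592 have a description, and 13328 have no reference identifier. Every sample column of both tables was matched to a library. The locus tags of the RefSeq gene table matched none of the identifiers, and no sequence was used.

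Members and domain lists were chosen with earlier results of these data known. Counts were tested in R 4.3.3 with edgeR 4.0.16 (TMM, filterByExpr, quasi-likelihood test, 4 group means fitted together, 8 residual degrees of freedom). Contrasts were the mean of the lines minus WT, each line minus WT, and an F test between lines. P-values were adjusted by Benjamini-Hochberg over all 75788 tested genes, with a threshold of 0.05. The SE of a log2 fold change is its size divided by the root of the F value. Biological variation, as a coefficient, had a median of 0.321. Levels per length divide the scaled CPM by the gene length in the table. Ratios for members with few WT counts have exact binomial 95% intervals and cover counting error only.

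Within each family the text names the 4 members with the lowest adjusted p, the 2 with the highest level per length, and the member with the lowest p in each line and between lines. Other members named were chosen after their values were seen. Library totals were 25622422 to 43532179 counts. Alternatives were edgeR's RLE size factors, no filter or 1 CPM in 3 libraries, a replicate block, DESeq2 1.42.0, limma 3.58.1 on log2(FPKM + 0.1) or log2(FPKM + 1) of the deposited FPKM, each line fitted alone with WT, each library left out in turn, and C20 replicate 3 and C40 replicate 1 left out together. The deposited FPKM, divided by the plain value from counts, total and length, gave library medians of 0.797 to 1.35, so the authors' FPKM carry a further scaling.

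Replicate numbers were checked for pairing: the deviations of same-numbered libraries from their group means correlated at -0.513 to 0.461 over 18 pairs, with 8 above 0.1, so the numbers were not used as pairs. No 2 libraries agreed within sampling noise (chi-square per gene 6.87 to 170). On simulated counts for the mean of the lines, with 100 genes changed at each size among 75788, edgeR found 5% of the 2-fold and 60% of the 4-fold changes and made 5 false calls, DESeq2 found 30% and 89% and made 109, and limma found 5% and 59% and made 4. For C22 alone, edgeR found 0% of the 2-fold and 9% of the 4-fold changes and made 0 false calls. In the data 23.2% of tested genes were called in the mean of the lines, far more than were changed in the simulation. Adjustment over all genes is stricter when few change, so these rates do not carry over to the data.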

Additional observations from a re-analysis of the deposited data

Results flagged for a closer look

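For 9 members the effects of the 3 lines against WT differed by an F test of the difference itself, in edgeR with adjustment over all tested genes (2.49% of all tested genes were called). The adjusted p was 0.0182 for TraesCS2A01G174700, which was low in C40 alone, and this call held in 18 of the 20 alternative settings. It was 0.0226 for TraesCS1A01G033600, 0.0250 for TraesCS4D01G308300, 0.0336 for TraesCS1B01G042300 and 0.0414 for TraesCS4A01G410300, Tim17 members with C20 near WT and C22 below it, called in 16, 14, 10 and 7 of the 20 settings. The Tim17 member TraesCS1A01G033500 had 0.0259 (12 settings) and the porin TraesCS4D01G331900 had 0.0376 (9 settings), both with C22 lowest and C20 between C22 and WT. For the Band 7 members TraesCS6A01G142300 and TraesCS1A01G146000, with C20 the lowest line and C40 the highest, it was 0.0234 (15 settings) and 0.0475 (7 settings). The highest adjusted p over the settings was 0.0542 for TraesCS2A01G174700 and 0.117 for TraesCS1A01G146000. The design cannot tell a difference between transgenic lines from one between the libraries that stand for them.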

How the results depend on the processing

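Against 27 members rising and 11 falling in the mean of the lines, the counts were 27 and 12 with RLE size factors, 20 and 10 with no filter, 28 and 11 with a filter of 1 CPM in 3 libraries, 36 and 12 in DESeq2, and 27 and 12 or 23 and 13 in limma with a pseudocount of 0.1 or 1. The share of all tested genes called was 23.2% as reported. In the same order it was 23.3%, 16.3%, 25.8%, 30%, and 15.9% or 14.1%. Of the 38 called members, 38 were kept with RLE size factors, in DESeq2 and without both C20 replicate 3 and C40 replicate 1, 37 with the 1 CPM filter, 35 and 32 in limma, and 30 with no filter. Without those 2 libraries 44 rose, 29 were called in C20, 49 in C40 and 5 between lines. Over all tested genes, 41.8% were then called in the mean of the lines, 25.3% in C20, 34.3% in C40 and 2.72% between lines. DESeq2 called 24 in C20 and 17 between lines, and limma 3 in C20 with either pseudocount. The shares of all tested genes were 13.6%, 9.87%, and 1.61% or 1.51%. Fitted alone with WT, edgeR called 0 in C20, with 27 at an unadjusted p under 0.05, and 52 in C22. These fits called 0.0176% and 40.9% of all tested genes. With 1 library left out, 6 to 34 rose and 3 to 12 fell, and 0 to 16 were called in C20, 10 to 39 in C22, 12 to 44 in C40 and 1 to 11 between lines. These fits called 5.43% to 34.1% of all tested genes in the mean of the lines and 0.112% to 16.4% in C20. In C22 they called 4.36% to 28.8%, in C40 5.55% to 29.6% and between lines 0.378% to 9.53%. For the 24 named members, 424 of 480 alternative values kept their side of the threshold and their direction, and 53 lost the call. The other 3, none called, changed sign: TraesCS6B01G308900 (-0.03) was 0.01 without C40 replicate 1 and without both libraries, and TraesCS5D01G196100 (-0.06) was 0.04 without WT replicate 3. The replicate numbers were not used as pairs, and the correlations of same-numbered libraries do not settle whether these share a batch. With a replicate block, 23 rose and 9 fell, 32 of the 38 called members were kept, and 1 was called in C20 and 3 between lines. That fit called 21.1% of all tested genes in the mean of the lines, 1.3% in C20 and 0.866% between lines. The cause of these differences was not tested. At 3 libraries a group, edgeR recovered 60% of simulated 4-fold and 5% of simulated 2-fold changes for the mean of the lines. The simulation changed far fewer genes than were called in the data, which makes its adjusted threshold stricter. These rates therefore do not give the share of real changes found here.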
